A study of Mus musculus with 27 samples.

Results

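Odor receptors of mammals fall into a class I group, related to the receptors of fish, and a much larger class II group. In the mouse most class I genes lie in 1 cluster on chromosome 7, and their neurons sit mainly in the dorsal zone of the olfactory epithelium. Each olfactory neuron expresses 1 receptor gene from 1 allele, and a long-range enhancer called the J element acts on many genes of the class I cluster. Known ligands of class I receptors include water-soluble acids. The level of a receptor mRNA in whole mucosa depends on how many neurons use the gene and on how much of its mRNA each neuron holds, and these cannot be told apart in bulk tissue.

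The class I cluster was taken as all genes that the array names from Olfr543 to Olfr692. This gave 86 of the 16675 named genes on the array, each read by 1 probe. The array names 603 other Olfr genes. All 86 were found in RefSeq's gene table (assembly GRCm38.p6) and all lie on chromosome 7. RefSeq also lists each under a family number of the MOR nomenclature, in which families 1 to 42 are class I. Of the 86, 85 belong to families 1 to 42 and 1, Olfr652, is listed in family 318. The label class I thus fits the family numbers of 85 members. The members span 40 families, of which 20 have 1 member on the array. The lowest- and highest-numbered members were Olfr544 and Olfr692. The nearest measured symbols outside the range, Olfr539 and Olfr693, are in families 253 and 283.

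The tissue was olfactory mucosa of female FVB mice aged 25 days. In unilateral naris occlusion 1 nostril was closed by cautery. Mucosa behind it (occluded) and mucosa of the other side of the same mice (open) were compared with mucosa of other mice that had a sham cautery (normal), which the design text calls untreated. Each group had 3 biological replicates with 3 arrays each, 27 arrays in all, and no other treatment or genotype is named. How long the nostril was closed is not stated.

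Array medians lay between 123 and 274 intensity units, and the noise limit of an array, taken as 3 times the root mean square over its negative values, between 11.6 and 24.1. The brighter of 2 probes of Omp, which marks mature neurons, was at the top of the scale on 9 of 9 occluded and 8 of 9 open arrays. Values below are quantile-normalized log2 intensity, averaged over the 3 arrays of a replicate. Differences are on the log2 scale with their standard error (SE) from limma, in which adjusted p means Benjamini-Hochberg adjustment over all 29922 probes. The probe sequences were not used here. Receptor genes resemble each other, so a probe may also read a related receptor, and each named member is uncertain to that extent.

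The start regions of 4 members are shown because 3 of them have among the smallest p-values below, while Olfr544 had the highest signal and nearly equal group means. They were chosen after their values were seen. RefSeq gives 75 of the 86 members a window of 250 bases before and 50 after the annotated start. In 55 of these the annotated start is the start codon itself, so the window holds no mapped transcription start, and 20 have a leader before it. The sequences are those of the C57BL/6J reference (GRCm38.p6), not of FVB mice, and are written 5′ to 3′ along the gene. Capitals mark the letters TAATTG or TAATGA on either strand, which resemble the sites of homeodomain factors such as Lhx2. The windows lie at chr7:103603339-103603638 (+ strand) for Olfr619, at chr7:104587469-104587768 (+ strand) for Olfr654, at chr7:104579374-104579673 (+ strand) for Olfr653 and at chr7:102488258-102488557 (- strand) for Olfr544.
Olfr619: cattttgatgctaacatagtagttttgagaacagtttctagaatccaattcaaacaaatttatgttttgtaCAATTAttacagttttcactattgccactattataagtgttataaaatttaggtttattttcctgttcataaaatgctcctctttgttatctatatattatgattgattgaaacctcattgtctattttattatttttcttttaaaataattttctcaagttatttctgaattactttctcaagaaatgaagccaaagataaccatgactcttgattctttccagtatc
Olfr654: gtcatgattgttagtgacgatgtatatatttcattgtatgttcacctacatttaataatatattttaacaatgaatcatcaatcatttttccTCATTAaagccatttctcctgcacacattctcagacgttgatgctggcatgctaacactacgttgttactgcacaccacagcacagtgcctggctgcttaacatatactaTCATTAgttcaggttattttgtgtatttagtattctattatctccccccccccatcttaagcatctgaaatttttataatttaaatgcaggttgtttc
Olfr653: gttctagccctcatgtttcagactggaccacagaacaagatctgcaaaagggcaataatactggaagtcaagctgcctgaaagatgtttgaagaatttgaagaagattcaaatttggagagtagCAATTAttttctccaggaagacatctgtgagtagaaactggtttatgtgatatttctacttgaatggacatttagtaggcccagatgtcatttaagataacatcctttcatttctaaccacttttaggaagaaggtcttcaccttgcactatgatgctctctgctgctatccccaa
Olfr544: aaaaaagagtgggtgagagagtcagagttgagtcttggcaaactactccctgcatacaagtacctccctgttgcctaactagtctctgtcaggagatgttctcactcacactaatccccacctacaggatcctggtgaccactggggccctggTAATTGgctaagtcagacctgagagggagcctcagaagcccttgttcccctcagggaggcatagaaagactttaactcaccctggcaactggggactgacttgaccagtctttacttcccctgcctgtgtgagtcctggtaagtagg

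Olfr619, Olfr653 and Olfr544 each hold 1 match to TAATTG and Olfr654 holds 2 matches to TAATGA. Over the 20 member windows with a leader, 25.0% held TAATTG and 35.0% held TAATGA on either strand. The shares were 31.0% and 32.9% in 158 windows of other Olfr genes with a leader, and 8.0% and 9.78% in all 32851 RefSeq windows of the same length. A and T made up a median of 62.3% of the bases in the member windows, 63.0% in those of other Olfr genes and 47.3% in all windows. The TATAAA letters were in 55.0%, 32.3% and 13.6% of the windows in the same order. The palindrome CCCNNGGG, which resembles sites of the Ebf factors, was in 2 of the 20 member windows and in 6.96% and 13.7% of the others. These are matches of letters and do not show binding, and the shares of the 4 motifs were compared without a test.

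Most members gave a readable signal. Of the 86, 78 lay above the noise limit on at least 14 of 27 arrays and 67 on all 27, and none was saturated on any array. The 8 below that were Olfr547, Olfr593, Olfr601, Olfr614, Olfr623, Olfr645, Olfr667 and Olfr689, and no fold is given for them. Medians and counts over all 86 members, or over parts of the 86, still include these 8. On at least 5 of 9 arrays of a group, 79 members were above noise on the occluded side, 78 on the open side and 76 in normal mucosa, and 6 members met this in some groups but not all. Over the 78 readable members, the SD among the 3 replicates had a median of 0.31 on the occluded side, 0.34 on the open side and 0.34 in normal mucosa.

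The 8 members with the highest signal were Olfr544, Olfr669, Olfr571, Olfr690, Olfr578, Olfr632, Olfr665 and Olfr643. Probes differ in how brightly they read a transcript, so this order is one of probe signal and not of mRNA. Olfr544, a receptor that responds to azelaic acid, gave 12.81, 12.54 and 12.53 in occluded replicates 1 to 3, 12.83, 12.76 and 12.27 in open replicates and 12.70, 12.33 and 12.78 in normal replicates. All groups overlapped, and the occluded minus open difference was 0.01 ± 0.17 (SE). Olfr571 (0.02 ± 0.30) and Olfr665 (-0.02 ± 0.18) also had differences between the sides that were small against their SE. Olfr578 differed by 0.65 ± 0.26, Olfr690 by 0.42 ± 0.31, Olfr669 by 0.15 ± 0.24, Olfr632 by 0.13 ± 0.20 and Olfr643 by 0.09 ± 0.19, and none of these passed (limma adjusted p between 0.767 and 0.998).

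The first comparison set the occluded side against the open side of the same mice. No member passed an adjusted p of 0.05 in limma (smallest adjusted p = 0.537), where 0.221% of all 29922 probes passed. Single receptors are thus not shown to change. The members did lean one way: 68 of 86 had a difference above 0 and 18 below, with a median of 0.22 and an interquartile range of 0.04 to 0.39. The median was 0.09 over the 603 other Olfr genes, of which 367 (60.9%) lay above 0, and 0.0080 over all 16675 named genes, of which 51.5% lay above 0. The 72 other Olfr genes on chromosome 7 had a median of 0.17, with 49 (68.1%) above 0. Both sets of other Olfr genes hold 7 genes of families 1 to 42. The 587 other Olfr genes of families above 42 had a median of 0.085, with 60.1% above 0. With an unadjusted p under 0.05 there were 9 members (10.5%), all higher on the occluded side and 0 lower. Of all probes, 3.56% were higher and 2.63% lower at that level. Of the other Olfr genes 66 (10.9%) were at that level, 51 higher and 15 lower, so the share of members at that level was like that of other receptors. The difference between class I and other receptors was not tested.

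**Figure D1:**
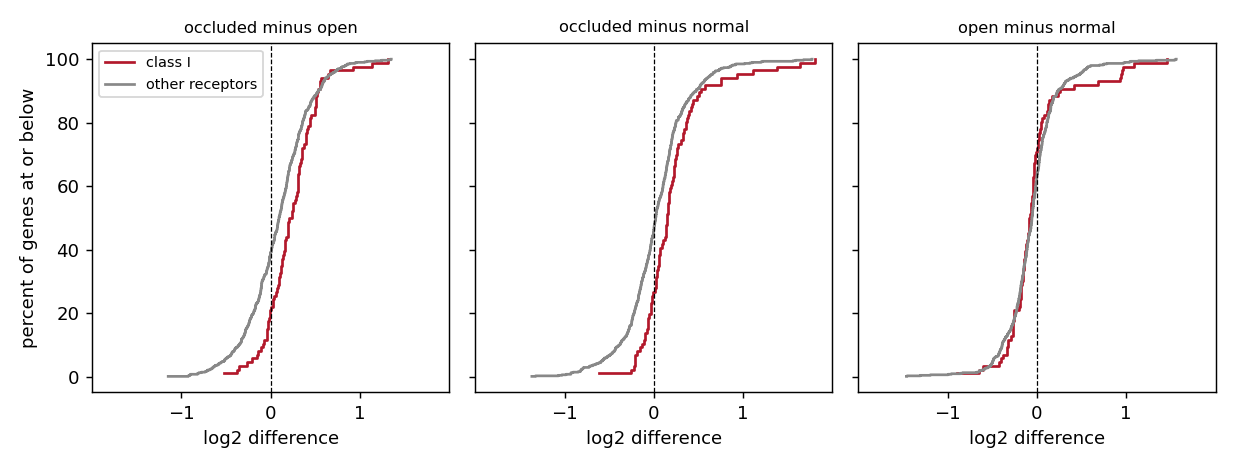
Cumulative percent of genes (y axis) at or below each log2 difference (x axis, from -2 to 2) for the 86 class I members (red) and the 603 other Olfr genes (grey), in the 3 comparisons. In occluded minus open the class I curve lies to the right, with a median of 0.22 against 0.09, while in open minus normal both medians lie slightly below 0 (-0.08 and -0.05).

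The lean differed between the 3 pairs of sides. In pair 1 the members' median difference of occluded minus open was 0.26 with 62 of 86 above 0, in pair 2 it was 0.03 with 44 above 0, and in pair 3 it was 0.38 with 75 above 0. The other Olfr genes had medians of 0.02, -0.01 and 0.28 in the same pairs. Pair 3 was thus the one with the highest median in both sets, and pair 2 had a median near 0 in both. The median level over the members was 7.67, 7.55 and 7.67 in occluded replicates 1 to 3, 7.36, 7.46 and 7.17 in open replicates and 7.77, 7.42 and 7.27 in normal replicates. The occluded replicates all lay above the open ones, and the normal replicates overlapped both. Without pair 2 the median difference was 0.36 and without pair 3 it was 0.13, so its size changes with single pairs. It stayed above 0 in all 14 alternative settings, but these reuse values of the same 3 pairs and are no independent support. The choice of replicate block or a fit of only the 2 groups compared could not move this median. Averaging all probes of a gene could not either, as each member has 1 probe.

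**Figure D2:**
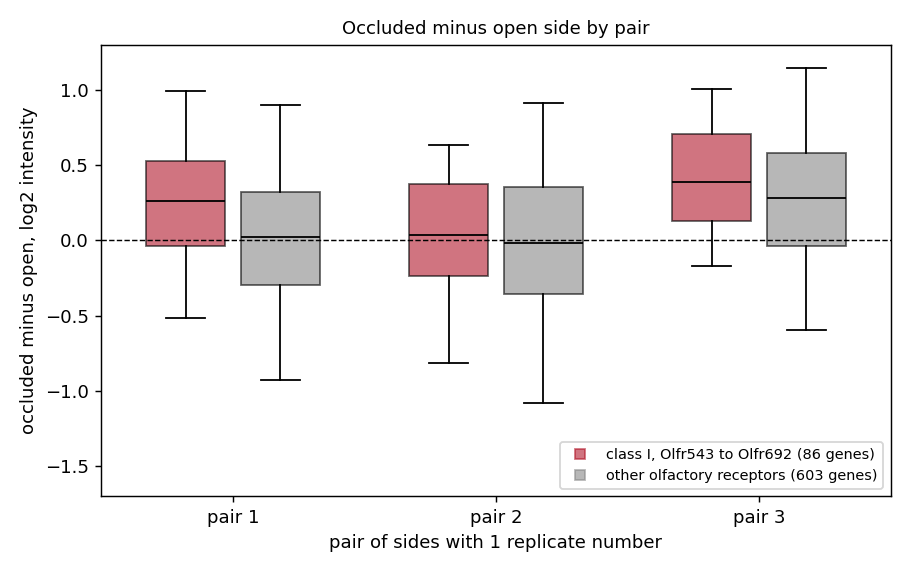
Occluded minus open log2 difference (y axis) in each of the 3 pairs of sides, for the 86 class I members (red) and the 603 other Olfr genes (grey). Boxes span the quartiles with the median as a line and whiskers the 5th to 95th percentile; the class I medians are 0.26, 0.03 and 0.38.

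In all 3 pairs 31 members (36.0%) were higher on the occluded side and 1 (1.16%) was lower. Among all probes these shares were 13.8% and 12.6%, and among the other Olfr genes 21.6% and 8.96%. For 9 members the groups did not overlap, with every occluded replicate above every open one: Olfr553, Olfr572, Olfr578, Olfr610, Olfr619, Olfr642, Olfr653, Olfr683 and Olfr691. This is 10.5% of the members against 3.76% of all probes and 7.96% of the other Olfr genes. No member had every occluded replicate below every open one, as 2.94% of all probes had. The 1 member that was lower in each pair was Olfr641.

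Among the readable members the smallest p in this comparison belonged to Olfr619, Olfr553, Olfr654, Olfr569 and Olfr572. Olfr619, of family 31, gave 5.62, 6.75 and 6.67 in occluded replicates 1 to 3 and 4.27, 5.56 and 5.29 in open replicates, and 6.28, 4.23 and 5.20 in normal ones. The 2 sides did not overlap, and normal mucosa spanned most of both ranges. The difference of the sides was 1.31 ± 0.41 (limma adjusted p = 0.537), a fold of 2.48. When 50 was added to every intensity ahead of the log it was 0.67 ± 0.19, as the offset damps low signals.

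Olfr553, of family 25, gave 4.20, 4.57 and 4.56 on the occluded side and 2.15, 3.72 and 4.07 on the open side. Its open replicate 1 was far lower than the others. Its probe was above noise on 21 of 27 arrays, with 8 of 9 on the occluded side and 6 of 9 on the open side. The difference was 1.13 ± 0.38 (limma adjusted p = 0.577), 0.67 without replicate 1 and 0.23 ± 0.09 with the offset of 50. Olfr654, of family 38, gave 8.77, 8.21 and 8.62 on the occluded side and 8.28, 8.04 and 7.61 on the open side, a difference of 0.56 ± 0.21 (adjusted p = 0.673) that was 0.33 without replicate 3. Its occluded replicate 2 lay within the open range.

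Olfr569, the 1 member of family 30, gave 8.13, 7.48 and 8.01 on the occluded side and 7.67, 7.39 and 7.04 on the open side. The difference was 0.51 ± 0.19 (limma adjusted p = 0.727), with overlap, and 0.27 without replicate 3. Olfr572, of family 10, gave 10.04, 9.82 and 9.82 on the occluded side and 9.42, 9.60 and 9.15 on the open side. It did not overlap between the sides and differed by 0.51 ± 0.20 (adjusted p = 0.727), a fold of 1.42. The other 4 members with an unadjusted p under 0.05 were Olfr653 (0.52 ± 0.21), Olfr578 (0.65 ± 0.26), Olfr642 (0.40 ± 0.17) and Olfr559 (0.49 ± 0.21). Olfr641, of family 13, went the other way, with 5.37, 5.65 and 4.37 on the occluded side against 5.50, 5.90 and 5.57 on the open side (-0.53 ± 0.27, adjusted p = 0.891). Olfr652, the member with a family number outside class I, also lay below 0 (-0.27 ± 0.18, adjusted p = 0.957).

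**Figure D3:**
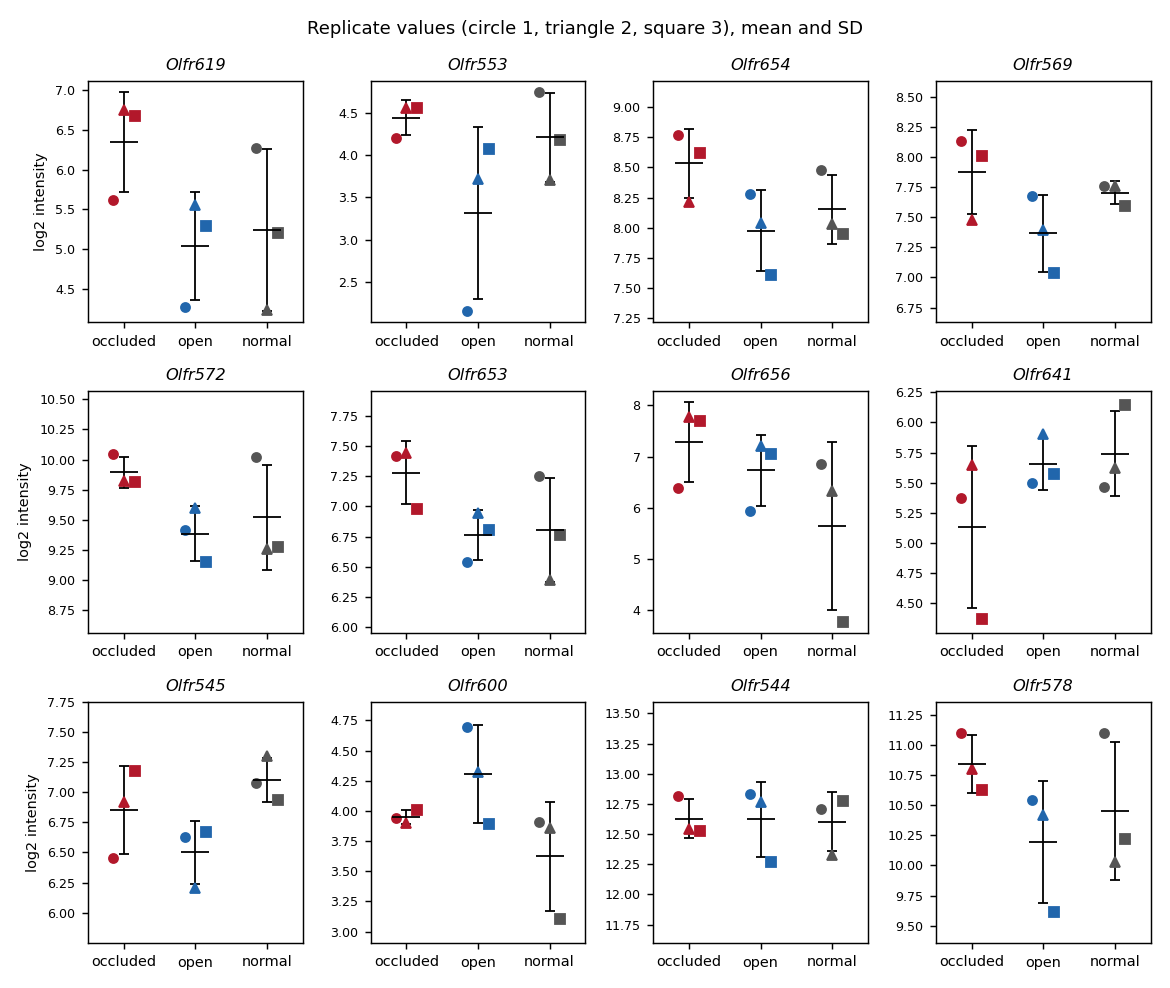
Log2 intensity (y axis, a range of its own in each panel) of 12 members in occluded (red), open (blue) and normal (grey) mucosa. Symbols are replicates 1 (circle), 2 (triangle) and 3 (square), with the mean as a line and the SD as bars (n = 3); Olfr619, Olfr553, Olfr572, Olfr653 and Olfr578 do not overlap between occluded and open, while the group means of Olfr544 lie between 12.60 and 12.63.

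The lean was not limited to dim probes. The 28 members with the highest signal had a median difference of 0.19 with 25 above 0, the 29 in the middle had 0.24 with 23 above 0, and the 29 dimmest had 0.27 with 20 above 0. The 29 dimmest include all 8 members below the noise limit. Other Olfr genes in the same signal ranges had medians of 0.10 (169 genes), 0.09 (180 genes) and 0.07 (236 genes). The differences of single members scattered most among the dimmest, with an interquartile range of 0.48 against 0.21 in the middle and 0.35 among the brightest.

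Along the chromosome the members were ordered by RefSeq. The first 22, from Olfr544 to Olfr575, had a median of 0.22 with 19 above 0, and the next 22, to Olfr620, had 0.10 with 13 above 0. The 21 from Olfr622 to Olfr653 had 0.24 with 17 above 0, and the last 21, to Olfr692, had 0.27 with 19 above 0. Neighbours in this order were no closer in value than members at large: 77 neighbouring pairs of readable members differed by a median of 0.29 and all 3003 pairs by 0.24. Pairs of 1 MOR family (94 pairs) differed by a median of 0.28.

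**Figure D4:**
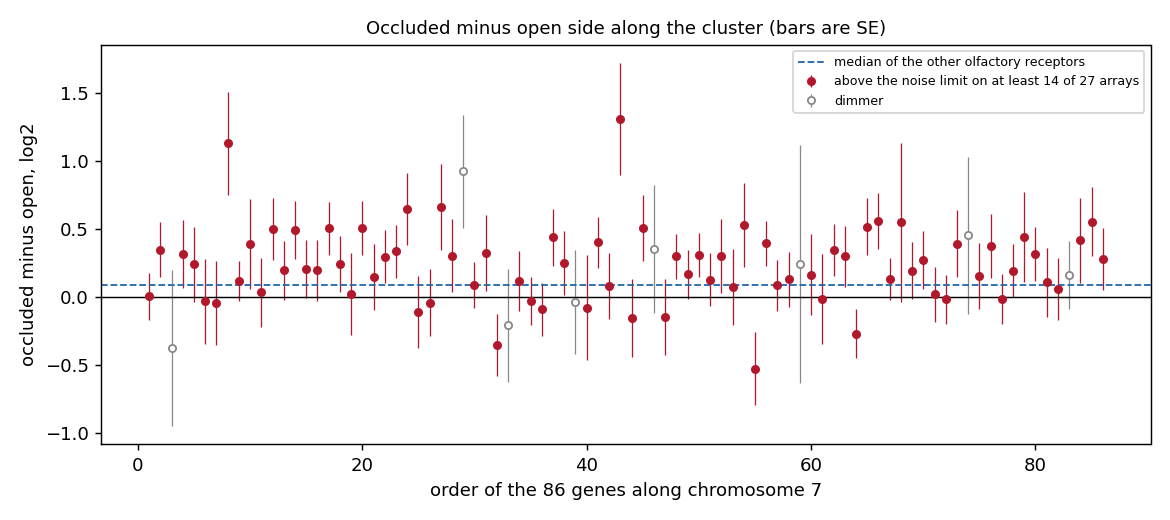
Occluded minus open log2 difference with its SE (y axis) for the 86 members in their order along chromosome 7 (x axis, rank and not distance). Filled points are the 78 readable members and open points the 8 dimmer ones; 68 points lie above 0, and the dashed line is the median of the other Olfr genes (0.09).

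The larger families gave similar medians. Family 31, with 9 members including Olfr619, Olfr690 and Olfr691, had a median of 0.32 with 7 above 0, and family 32, with 7 members, 0.30 with 6 above 0. Family 13, whose 6 members Olfr640 to Olfr645 are numbered in a row, had 0.19 with 5 above 0 and held both Olfr640 (0.53) and Olfr641 (-0.53). Families 34 and 40, with 5 members each, had medians of 0.27 and 0.16, and family 14, with 4, had 0.17. Families 31, 13, 34 and 40 include Olfr547, Olfr645, Olfr667 and Olfr689, in that order, which are below the noise limit. The array also holds 7 Olfr genes of families 1 to 42 with numbers below those of the cluster: Olfr64 to Olfr69 and Olfr78. Their median was 0.35, with 6 of 7 above 0, and none passed (smallest limma adjusted p = 0.864, unadjusted p under 0.05 in 0 of 7).

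Of 12 listed markers of mature olfactory neurons 9 were measured, 8 had an occluded minus open difference above 0, and the median was 0.34. One of the 8, Omp, lay at 0.0031 and was saturated on nearly all arrays. This is the brighter of 2 Omp probes, and the other is not reported here. Slc17a6, a glutamate transporter gene, was lower on the occluded side in all 3 pairs (-0.57 ± 0.41). The summed log2 level of the 9 was 123.1, 126.5 and 127.5 in occluded replicates 1 to 3 and 121.3, 124.2 and 124.7 in open replicates. The occluded sum was thus higher in each pair, and in normal mucosa it was 121.1 to 124.3. None of the 9 markers passed, and 4 had an unadjusted p under 0.05, where 6.19% of all probes did. The smallest of these belonged to Cnga2, the olfactory channel gene (0.53 ± 0.17), which was saturated on 3 of 9 occluded arrays and on 0 of the open and normal ones. Of 8 markers of immature neurons 7 were measured, and 6 of these lay below 0, with a median of -0.16 over the 7. Their summed levels were 78.2, 81.7 and 81.9 in occluded replicates 1 to 3 and 80.3, 82.5 and 82.6 in open replicates. The occluded sum was thus lower in each pair, and in normal mucosa it was 81.6 to 83.6. The part of the neuron markers in the receptor lean was not tested. Among other cell types, 3 of 5 sustentacular markers were measured (median -0.07), 5 of 5 of respiratory epithelium (0.05) and 4 of 4 vomeronasal ones (-0.15). The respiratory median is the value of Krt8 (0.05 ± 0.28), which may not be particular to that tissue. The vomeronasal median falls between Gnai2 (-0.43 ± 0.30) and Gnao1 (0.13 ± 0.16), which may not be particular to vomeronasal cells either. The vomeronasal channel gene Trpc2 differed by 0.84 ± 0.17 (limma adjusted p = 0.157), while the receptor gene Vmn2r1 was above noise on 1 of 27 arrays.

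Genes that mark the zones of the epithelium bear on class I receptors, whose neurons are mostly dorsal. Of 6 genes listed as dorsal (Nqo1, Acsm4, Robo2, Nrp1, Msx1 and Nfia) 4 lay below 0 on the occluded side (median -0.16). Of 6 listed as ventral (Ncam2, Nrp2, Slit1, Sema3f, Nfib and Nfix) 5 lay above 0 (median 0.06). One of the 5, Nrp2, had a probe above noise on 2 of 27 arrays (0.07 ± 0.49). Sema3f (0.05 ± 0.18) and Nfia (0.0019 ± 0.23) may be listed for the wrong zone, and Nrp1 may not mark a zone. These counts are therefore not read as a split between zones. Of both lists, 0 of 12 passed in limma, with 0 at an unadjusted p under 0.05. Nqo1, an enzyme of dorsal neurons, gave 4.77, 6.08 and 5.68 on the occluded side and 4.36, 6.59 and 7.04 on the open side (-0.49 ± 0.48). Acsm4 (-0.32 ± 0.47) had a similarly wide spread, with replicate 1 lowest in all 3 groups for both genes. The smallest p-values of the zone list were those of the transcription factor gene Nfix (0.40 ± 0.23, limma adjusted p = 0.929) and of Nrp1, a semaphorin receptor of olfactory axons (-0.24 ± 0.20, adjusted p = 0.982).

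Genes for the choice and transport of receptors gave no call either. Of 20 listed genes, 5 of them also listed as mature neuron markers, 18 were measured, with 11 above 0, a median of 0.09 and 0 called in limma. Of the 18, 3 had an unadjusted p under 0.05, where 6.19% of all probes did. These were Ric8b, Adcy3 and Gnal, and the last 2 were already counted among the mature neuron markers at that level. One of the 11, Cbx5, was above noise on 10 of 27 arrays (0.10 ± 0.47). Ric8b, which helps the olfactory G protein fold, gave 14.42, 14.92 and 14.86 on the occluded side and 13.99, 13.30 and 14.32 on the open side. It did not overlap and differed by 0.86 ± 0.24 (limma adjusted p = 0.408). The cyclase gene Adcy3 differed by 0.34 ± 0.13 (adjusted p = 0.706). Bcl11b, a factor of neurons that use class II receptors, differed by -0.06 ± 0.16, and Lhx2 by 0.13 ± 0.16.

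Against normal mucosa, the occluded side was compared next. No member passed (smallest limma adjusted p = 1.0 after rounding), where 0.00668% of all probes did. Of the members 63 lay above 0 and 23 below, with a median of 0.15. The other Olfr genes had a median of 0.02 with 53.7% above 0. An unadjusted p under 0.05 was found for 1 member, higher on the occluded side, and for 0 lower ones, against 1.62% of all probes higher and 1.25% lower. That 1 member, Olfr623, was above noise on 3 of 27 arrays. The median lay between 0.07 and 0.26 over the alternatives: it was 0.07 without occluded replicate 1 or normal replicate 2, 0.08 without occluded replicate 3 or normal replicate 3, 0.26 without normal replicate 1 and 0.25 without occluded replicate 2.

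The readable members with the smallest p here were Olfr656, Olfr619, Olfr570, Olfr653 and Olfr641. Olfr656, of family 27, gave 6.38, 7.76 and 7.70 on the occluded side and 6.84, 6.32 and 3.77 in normal mucosa. Normal replicate 3 stood far below the rest, and the groups overlapped (1.64 ± 0.75, limma adjusted p = 1.0); without that replicate the difference was 0.70 ± 0.47, and with the offset of 50 it was 0.79. Olfr570, of family 8, gave 7.70, 8.58 and 7.99 against 7.94, 7.34 and 7.49 (0.50 ± 0.26). Olfr619 (1.11 ± 0.53) and Olfr653 (0.48 ± 0.27) lay above 0 and Olfr641 below (-0.61 ± 0.35), each with overlap. Without normal replicate 2 the first was 0.61 and the second 0.27, and without occluded replicate 3 Olfr641 was at -0.26. The offset gave 0.56 for Olfr619 and -0.25 for Olfr641. This comparison shares the occluded samples with the first, so the 2 are not independent. Zone and receptor-choice genes gave 0 calls in limma here too, with 0 of 12 and 1 of 18 at an unadjusted p under 0.05, where 2.88% of all probes were. By p the leading genes were Nfib (0.24 ± 0.20), Sema3f (0.23 ± 0.23), the G protein gene Gnal (0.75 ± 0.24, adjusted p = 1.0) and Gng13 (0.33 ± 0.23).

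The third comparison set the open side against normal mucosa. No member passed in limma, and 0% of all probes did. Of the members 24 lay above 0 and 62 below, with a median of -0.08. The other Olfr genes had a median of -0.05, with 37.0% above 0. An unadjusted p under 0.05 was found for 2 higher members and 1 lower member, against 0.789% of all probes higher and 0.805% lower. Of the 2 higher members, Olfr623 was above noise on 3 of 27 arrays and on 0 of 9 normal ones. The sign of the median rests on single settings: without normal replicate 1 it was 0.07, with 52 of 86 above 0, and without normalization between arrays it was 0.02, where all probes had a median of 0.0982.

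The readable members with the smallest p were Olfr545, Olfr600, Olfr622, Olfr553 and Olfr631. Olfr545, a receptor of the same family 42 as Olfr544, gave 6.63, 6.20 and 6.67 on the open side and 7.07, 7.30 and 6.94 in normal mucosa. The groups did not overlap, as for 2.21% of all probes in this direction and 2.06% in the other, and the difference was -0.60 ± 0.26 (limma adjusted p = 1.0). It was -0.31 with the median of the 3 arrays and -0.35 with the offset of 50. Its occluded replicates were 6.45, 6.92 and 7.18. Olfr600, of family 39, gave 4.70, 4.32 and 3.89 on the open side and 3.91, 3.85 and 3.10 in normal mucosa (0.68 ± 0.29), with 18 of 27 arrays above noise, and differed by 0.42 without normal replicate 3 and 0.17 with the offset. Olfr622 (-0.64 ± 0.31, 14 arrays above noise), Olfr553 (-0.90 ± 0.48) and Olfr631 (-0.38 ± 0.21) lay lower on the open side, each with overlap. Without open replicate 1 they were at -0.40, -0.28 and -0.24, and Olfr631 was at -0.24 without normal replicate 1 too. With the median of the 3 arrays Olfr622 was at -0.09 and Olfr553 at -0.51, and with the offset they were at -0.11 and -0.19. Of the lists, Ncam2, an adhesion molecule of ventral neurons, differed by 0.30 ± 0.26, Msx1 by -0.26 ± 0.26, Ebf4 by -0.40 ± 0.20 and the stress kinase gene Eif2ak3 by 0.38 ± 0.21, and 0 genes of either list passed in limma (0 with an unadjusted p under 0.05).

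Over all 3 groups, the occluded side had the highest mean for 50 of 78 readable members, normal mucosa for 20 and the open side for 8. The open side had the lowest mean for 52. Single replicates carried much of this: open replicate 3 was the lowest of the 9 values for 34 members, and normal replicate 1 was the highest for 22. Normal mucosa thus held a replicate in which many members were high and replicate 2, the lowest for 14. These ranks and extremes were not counted for the 603 other Olfr genes. Their median was also lowest in open replicate 3 (7.03, against 7.31 and 7.36 in open replicates 1 and 2). In normal replicates 1 to 3 it was 7.35, 7.08 and 7.35. The other Olfr genes leaned the same way, with 60.9% above 0 in occluded minus open and 37.0% in open minus normal. Of the members with a known site or ligand, Olfr558, a receptor of short-chain fatty acids that is also found outside the nose, had means of 6.98 ± 0.26 (SD, n = 3) on the occluded side, 6.79 ± 0.35 on the open side and 6.78 ± 0.25 in normal mucosa. Olfr692, which has been described in vomeronasal neurons, had 6.81 ± 0.33, 6.53 ± 0.50 and 6.57 ± 0.33. The 3 groups overlapped for both. Just outside the number range, Olfr539 had group means of 4.55, 4.25 and 4.25 and Olfr693 had 8.11, 7.95 and 8.13, in the order occluded, open and normal.

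**Figure D5:**
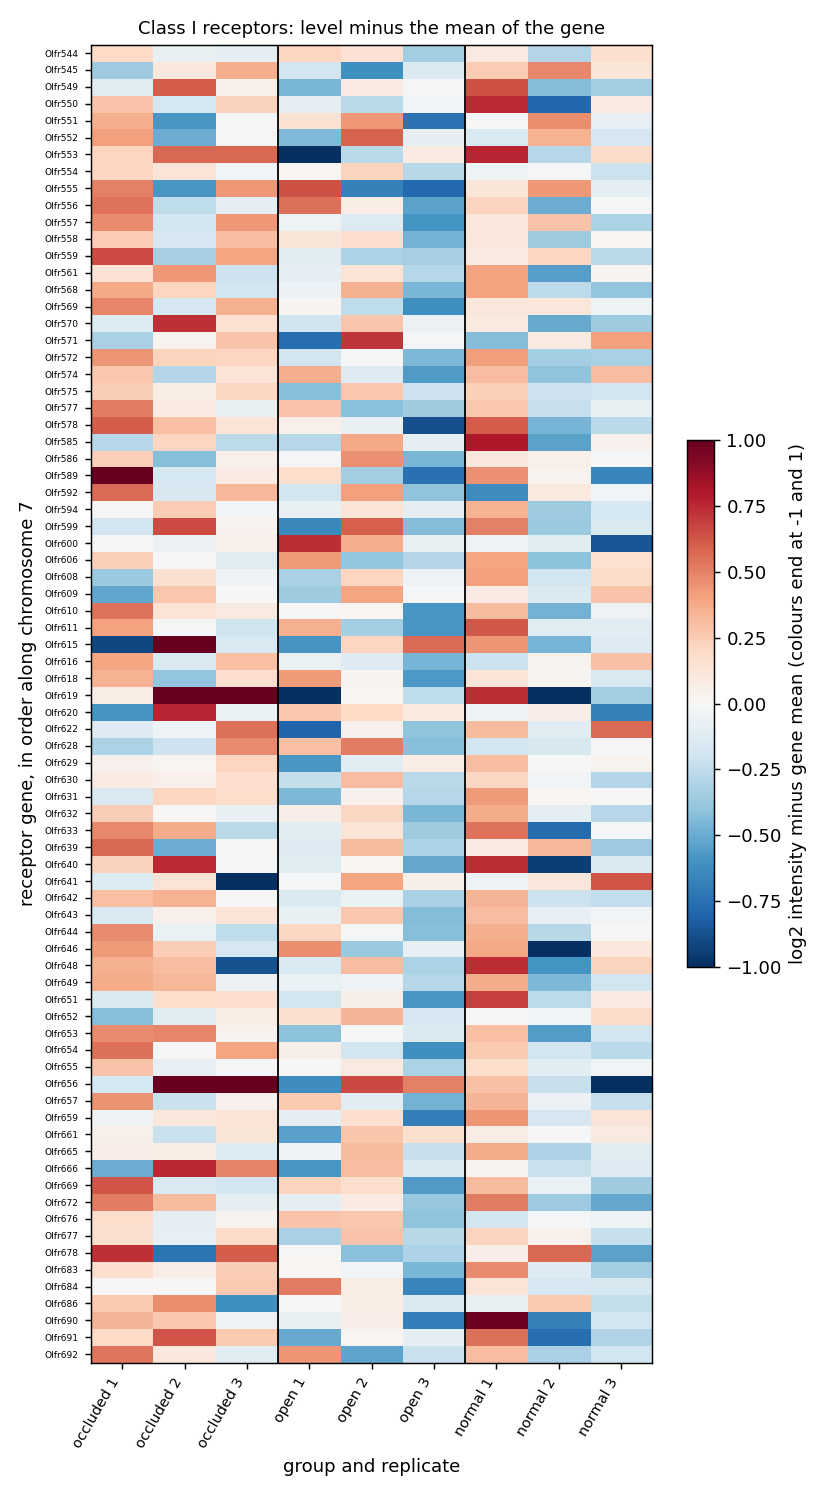
Log2 intensity of the 78 readable members (rows, in order along chromosome 7) in the 9 replicates (columns), with the mean of each gene subtracted; red is above and blue below the mean, and colours end at -1 and 1. Blue prevails in open replicate 3, the lowest value for 34 members, and red in normal replicate 1, the highest for 22. The other Olfr genes, not shown, also had their lowest median in open replicate 3.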

How the data were processed

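The authors deposited linear intensity values of 29922 probes on 27 arrays, each with 1 Cy5-labelled sample of amplified RNA, per the labels' protocols. Not given in the sources used here were the scanner, background method and scaling. Ahead of the log2, every value of 0 or less was replaced by the smallest one above 0 (0.912). Quantile normalization came next, then the mean over the 3 arrays (the letters in the titles) of each replicate. limma 3.58.1 in R 4.3.3 (statmod 1.5.0) fitted the 3 groups over all probes with the number shared by both sides as random block (correlation 0.389), two-sided, with a threshold of 0.05, and was checked on simulated data. Both sides were taken from the same mice, per the design text, and a shared replicate number was taken to mean the same animals. Deviations from the group means of same-numbered sides correlated at 0.516, -0.0044 and 0.142 in the 3 pairs. No label says whether a replicate is 1 mouse or a pool, and none names a batch.

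Gene names are those of the platform's annotation table. Named members were, by rule, the 5 readable members with the smallest p in each comparison, the 8 brightest, Olfr544, Olfr545, Olfr558 and Olfr692, the ends of the number range and its outside neighbours, and of the zone list and the receptor-choice list the 2 genes with the smallest p. Others were named after their values were seen. The members, lists and tests were chosen with earlier results of these data known. No list was tested as a whole.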

Additional observations from a re-analysis of the deposited data

How the results depend on the processing

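No member passed an adjusted p of 0.05 in limma under any of the 13 alternatives tried for occluded vs open or the 15 tried for each other comparison. The smallest adjusted p of a member over these was 0.187, 0.734 and 0.913 in the 3 comparisons. With no replicate block the smallest was 1.0 in occluded vs open, and with a fixed replicate block for each pair it was 0.454; the block changed no call of a member. Over all probes the count of calls in occluded vs open, 66, was 3 with no replicate block and 0 with that fixed block; with a pair left out it lay between 0 and 35. The 15 differences named by p kept their sign in all alternatives, but many moved by over 1.5 times, as given beside them. They were picked by p from the same data that every alternative reuses, so a kept sign is no independent support. The members' median in occluded vs open lay between 0.13 and 0.36 with a pair left out, and was 0.13 with an offset of 50 before log2, 0.17 with the median of the 3 arrays and 0.18 without normalization. Over the readable members alone, a choice made after seeing the data, it was 0.22. With a replicate left out it lay between 0.07 and 0.26 in occluded vs normal and between -0.21 and 0.07 in open vs normal. At 5 times the root mean square 73 members, in place of 78, were above noise. The number of replicates limits all comparisons: with 3 pairs, the median SE of a readable member was 0.23 between the sides.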
